A study of Mus musculus with 33 samples.

Results

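The 8 genes described here are germ cell genes of the kind known to be kept silent in somatic cells by promoter DNA methylation. They are Dazl, Sohlh2, Taf7l, Stk31, Tex101, Slc25a31, Tuba3a and Tuba3b. They are given by a list of gene symbols, drawn up with earlier results of these data known, and each symbol was found once among the 55487 genes listed in the deposited tables. DNA methylation itself was not measured in these data, so the part of their description that speaks of methylation was not tested.

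RNA-seq was performed on 33 libraries of C57BL/6 mouse embryonic stem cells (ESCs), 3 for each of 11 conditions. HP1α, HP1β and HP1γ, encoded by Cbx5, Cbx1 and Cbx3, bind methylated lysine 9 of histone H3, and SETDB1 is an enzyme that places this methylation. Single mutants lacked Hp1α, Hp1β or Hp1γ (labelled KO), and double mutants lacked Hp1α/β, Hp1α/γ or Hp1β/γ (labelled DKO). These were constitutive CRISPR-Cas9 mutants, and each may stand for a single clone. The triple mutant, Hp1α/β/γ Δ/Δ (labelled TKO), was made from Hp1α/β Δ/Δ cells with a floxed Hp1γ gene by transient transfection of Cre recombinase. The study took its RNA a few days after transfection, so its loss of Hp1γ was recent, unlike the losses in the constitutive mutants. Setdb1 Δ/Δ cells (labelled SETDB1KO) were derived by Cre from Setdb1 F/F cells (labelled SETDB1FF), whose loxP sites flank an internal part of the gene. No separate time is given for their RNA, so time since loss may differ between the mutants compared. Both sets of wild-type libraries carry the same label, WT, and are called sets A and B here. Set A stood beside the single mutants, Hp1α/β Δ/Δ and Hp1α/β/γ Δ/Δ in the deposited tables, and set B beside Hp1β/γ Δ/Δ and Hp1α/γ Δ/Δ. For the triple mutant the study describes another control, cells that already lacked Hp1α and Hp1β, carried the floxed Hp1γ gene and received a control vector. Against set A, differences of the triple mutant therefore include those of losing Hp1α and Hp1β. The cells were grown on mouse fibroblast feeders, which were depleted by plating before RNA was taken.

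Germ cell genes of this kind are active in primordial germ cells or in the testis and ovary and are off in other tissues. Many have promoters rich in CG dinucleotides that become methylated when the embryo implants. In ESCs they are also held down by PRC1.6, a Polycomb complex whose MGA-MAX pair recognises the E-box CACGTG and whose E2F6 subunit recognises GCGGGAA, and by SETDB1 and histone H3 lysine 9 methylation. Among the 8 genes, Dazl encodes an RNA-binding protein that controls translation in germ cells. Sohlh2 encodes a helix-loop-helix transcription factor of spermatogonia and oocytes, and Taf7l a germ cell paralogue of the TFIID subunit TAF7. Stk31 encodes a germ cell kinase-like protein with a Tudor domain, Tex101 a glycoprotein anchored at the germ cell surface, and Slc25a31 the ADP/ATP carrier of meiotic mitochondria (ANT4). Tuba3a and Tuba3b encode α-tubulins of the testis.

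The genes lie at 8 places in the genome (GRCm38, GENCODE M21). Dazl spans chr17:50279395-50293636 on the minus strand with 11 exons, and Stk31 chr6:49395604-49469501 on the plus strand with 24. Taf7l spans chrX:134460118-134476490 on the minus strand with 13 exons, and Tex101 chr7:24668007-24676675 on the minus strand with 7. Slc25a31 and Sohlh2 share a chromosome, at chr3:40708855-40726096 with 6 exons and chr3:55182028-55209957 with 11, both on the plus strand. Tuba3a, at chr6:125278274-125286042 on the minus strand, and Tuba3b, at chr6:145615757-145621479 on the plus strand, have 5 exons each. A pseudogene, Gm17060, lies inside Stk31 on the opposite strand, and 4930417O13Rik covers all 7769 bases of Tuba3a on the opposite strand. Their counts never passed 1.05 and 0.755 CPM (counts scaled to a library total of 1000000) in any library.

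RefSeq promoter windows (GRCm38.p6) were read for all 8 genes, each from 250 bases before the start to 50 after it. CACGTG, a palindrome, and GCGGGAA were searched on both strands and did not overlap each other. CACGTG was found in 3 of the 8 windows and in 7.15% of all 32851 windows. GCGGGAA was likewise found in 3 of the 8, against 4.6% of all windows. Slc25a31 held both motifs, which 0.457% of all windows did. Dazl, Tex101 and Sohlh2 held neither. The 5 windows with a motif are printed because they show where these letters lie, with CACGTG or GCGGGAA (read as TTCCCGC where it lies on the other strand) in capitals. In these windows the first base of CACGTG was at -120 of Stk31, -49 of Taf7l and -93 of Slc25a31, and that of GCGGGAA at 19 of Slc25a31, -120 of Tuba3a and -107 of Tuba3b, all counted from the start.
Stk31, chr6:49395354-49395653, plus strand: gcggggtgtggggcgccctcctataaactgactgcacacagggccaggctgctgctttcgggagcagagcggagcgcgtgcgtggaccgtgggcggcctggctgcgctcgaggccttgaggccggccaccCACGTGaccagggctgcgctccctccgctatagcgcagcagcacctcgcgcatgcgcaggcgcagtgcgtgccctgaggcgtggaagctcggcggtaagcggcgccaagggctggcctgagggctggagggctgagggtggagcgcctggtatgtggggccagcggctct
Taf7l, chrX:134476441-134476740, minus strand: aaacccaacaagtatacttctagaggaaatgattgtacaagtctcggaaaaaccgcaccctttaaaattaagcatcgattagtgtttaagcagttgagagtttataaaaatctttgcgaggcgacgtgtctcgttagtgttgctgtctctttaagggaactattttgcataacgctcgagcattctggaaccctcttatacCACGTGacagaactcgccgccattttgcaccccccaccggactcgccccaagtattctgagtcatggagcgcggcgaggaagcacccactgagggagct
Slc25a31, chr3:40708621-40708920, plus strand: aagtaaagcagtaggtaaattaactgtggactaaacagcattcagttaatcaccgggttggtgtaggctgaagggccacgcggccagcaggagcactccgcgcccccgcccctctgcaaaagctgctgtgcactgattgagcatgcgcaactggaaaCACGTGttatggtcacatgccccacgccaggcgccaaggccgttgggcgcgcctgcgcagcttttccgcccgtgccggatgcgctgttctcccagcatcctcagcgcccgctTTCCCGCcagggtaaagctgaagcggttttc
Tuba3a, chr6:125286032-125286331, minus strand: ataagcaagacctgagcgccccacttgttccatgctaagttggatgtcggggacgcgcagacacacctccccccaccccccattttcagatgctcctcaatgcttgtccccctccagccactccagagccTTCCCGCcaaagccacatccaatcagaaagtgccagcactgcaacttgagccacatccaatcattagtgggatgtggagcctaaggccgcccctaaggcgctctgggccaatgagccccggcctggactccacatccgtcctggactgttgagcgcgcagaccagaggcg
Tuba3b, chr6:145615713-145616012, plus strand: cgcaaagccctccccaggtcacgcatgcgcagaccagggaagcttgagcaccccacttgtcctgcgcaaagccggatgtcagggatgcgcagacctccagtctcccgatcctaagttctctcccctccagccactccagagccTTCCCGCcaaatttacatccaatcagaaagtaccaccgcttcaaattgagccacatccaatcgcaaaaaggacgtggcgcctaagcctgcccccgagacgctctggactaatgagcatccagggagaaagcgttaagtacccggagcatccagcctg

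A motif match is a description of the letters and not a measured binding site. The windows of Tuba3a and Tuba3b were 80.0% identical over 215 aligned bases. The windows held between 12 (Tuba3a) and 28 (Dazl and Stk31) CG dinucleotides, and all 8 lay above the median of 7 over all windows, whose quartiles were 3 and 20. Slc25a31 held 22, Tex101 19, Taf7l and Sohlh2 17 each, and Tuba3b 16. The RefSeq start of Tex101 lay 4625 bases inside the GENCODE gene, and that of Tuba3b 206 bases from the GENCODE start.

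**Figure D1:**
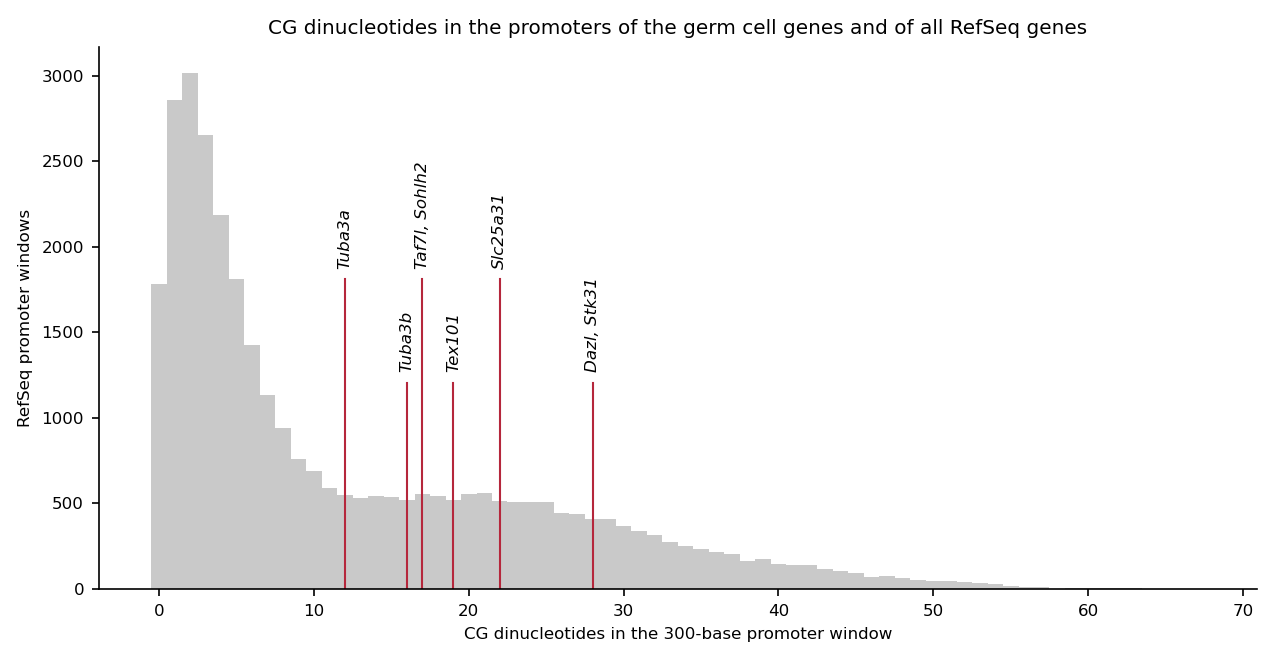
Number of CG dinucleotides (x axis) in the 300-base RefSeq promoter windows of all mouse genes (y axis: number of windows, grey bars), with the 8 germ cell genes marked by red lines whose height has no meaning. The 8 genes lie between 12 and 28, above the median of 7.

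The 33 libraries held 17330936 to 25743149 counts each (median 21522569). Replicates of 1 condition correlated at 0.972 to 0.996 (Pearson's r of log2 CPM), and the lowest values belonged to Hp1α/γ Δ/Δ, outside which none was under 0.992. There, replicate 2 stood apart, with a chi-square per gene of 122 and 114 against replicates 1 and 3, which differed from each other by 2.53. The edited genes went the way of the labels: Cbx5 was at 177 to 181 CPM in Hp1α Δ/Δ against 479 to 490 in wild-type set A, Cbx1 at 99.7 to 111 against 430 to 448 in Hp1β Δ/Δ, and Cbx3 at 74.8 to 76.7 against 173 to 186 in Hp1γ Δ/Δ. In the triple mutant Cbx1 was at 42.1 to 47.6 CPM and Cbx3 at 59.2 to 63.9. Cbx5 was at 267 to 276 CPM there, above Hp1α/β Δ/Δ at 199 to 208, and ran from 85.4 to 183 in Hp1α/γ Δ/Δ. Setdb1 was at 67.7 to 71.6 CPM in Setdb1 Δ/Δ against 131 to 136 in Setdb1 F/F, where counts on the undeleted exons remain. The ESC markers were all detected in every condition, with summed levels of 1359 to 1404 CPM in the triple mutant, 4540 to 4592 in Setdb1 Δ/Δ, 6623 to 6656 in Setdb1 F/F and 3262 to 8094 elsewhere.

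In wild-type ESCs the 8 genes were low. On the deposited TPM (transcripts scaled for length and to a library total of 1000000, which allows levels of different genes to be compared), set A averaged 4.25 for Tuba3a, 3.84 for Sohlh2, 1.69 for Taf7l, 1.61 for Dazl and 1.6 for Stk31. Tex101 at 0.690, Slc25a31 at 0.293 and Tuba3b at 0.0267 TPM were under 1. Thus 5 of the 8 genes reached 1 TPM in set A and 4 did in set B. In Setdb1 F/F cells the order differed, with Sohlh2 first at 57.6 TPM, and Dazl at 6.04, Tuba3a at 4.93, Stk31 at 4.76 and Taf7l at 2.28.

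**Figure D2:**
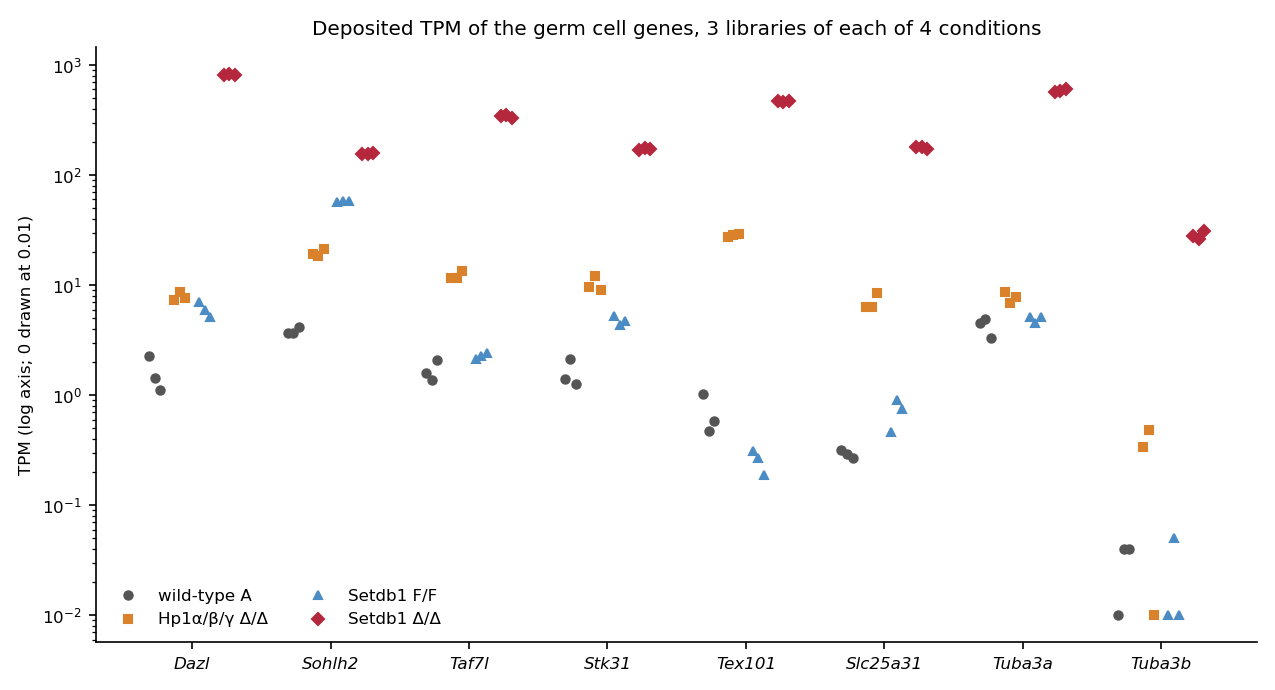
Deposited TPM (y axis, log scale) of the 8 genes (x axis) in wild-type set A, Hp1α/β/γ Δ/Δ, Setdb1 F/F and Setdb1 Δ/Δ, with 3 points for the 3 libraries of each; values of 0 are drawn at 0.01. All 8 genes are highest in Setdb1 Δ/Δ, from 28.3 TPM on average for Tuba3b to 818 for Dazl, and Sohlh2 is the gene with the highest starting level in Setdb1 F/F, 57.6.

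Loss of Setdb1 was followed by the highest level of every one of the 8 genes in the series. In the comparison of Setdb1 Δ/Δ with Setdb1 F/F, 7 of the 8 genes rose, none fell, and the median log2 fold change was 6.68, against 0.01 over all 16457 genes tested. A gene counts as risen or fallen where the adjusted p of edgeR's quasi-likelihood test was under 0.05 and the log2 fold change passed 1 in size. By that rule 18.5% of all genes tested rose and 11.4% fell. Tex101 and Tuba3b passed the filter on low counts through the mutant libraries, so they could only be tested because they were high there, and the same holds for Tex101 and Slc25a31 in the Hp1 mutants where they were tested. Counts and medians over the genes tested are therefore descriptions. The libraries of Setdb1 Δ/Δ and Setdb1 F/F did not overlap for any of the 8 genes.

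Dazl, the RNA-binding regulator, was at 1101, 1103 and 1068 CPM in the 3 Setdb1 Δ/Δ libraries and at 13, 11.3 and 10.6 CPM in Setdb1 F/F. The log2 fold change was 6.56 ± 0.05 (SE), with an adjusted p of 7.86e-24. With 818 TPM, Dazl ranked 141 among the 55487 genes listed in Setdb1 Δ/Δ cells. No library of either group came near the other group.

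Taf7l, the TFIID subunit paralogue, was at 318, 322 and 299 CPM after loss of Setdb1 and at 2.75, 2.54 and 3.19 CPM before. Its log2 fold change was 6.81 ± 0.11, with an adjusted p of 2.43e-22. Sohlh2, the other transcription regulator, was at 184, 184 and 187 CPM against 94.7, 96.8 and 97.6 CPM. Sohlh2 was thus the only one of the 8 genes that did not pass the fold threshold, at a log2 fold change of 0.96 ± 0.03 and an adjusted p of 2.22e-15, and it was also the one with a high level in the floxed control. On the deposited TPM, which was not tested, Sohlh2 went from 57.6 to 157, a step past that threshold. Its place just under the threshold therefore depends on the scale.

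Stk31 was at 257, 256 and 246 CPM in Setdb1 Δ/Δ and at 9.40, 7.45 and 8.86 CPM in Setdb1 F/F, a log2 fold change of 4.89 ± 0.07 (adjusted p 1.86e-21). Tex101, the surface glycoprotein, went from 0.200, 0.169 and 0.118 CPM, 9 counts in all, to 206, 204 and 205 CPM. Its log2 fold change of 10.24 ± 0.37 (adjusted p 8.70e-23) ranked 5 from the highest among all genes tested. Slc25a31, the meiotic ADP/ATP carrier, went from 0.700, 1.35 and 1.12 CPM to 192, 189 and 180 CPM, a log2 fold change of 7.49 ± 0.19 (adjusted p 3.03e-21). In TPM, Stk31 went from 4.76 to 173, Tex101 from 0.257 to 465 and Slc25a31 from 0.703 to 178.

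The testis tubulins rose as well. Tuba3a was at 392, 406 and 418 CPM in Setdb1 Δ/Δ against 5.05, 4.46 and 5.08 CPM in Setdb1 F/F, a log2 fold change of 6.39 ± 0.08 (adjusted p 6.80e-23). Tuba3b was at 23.5, 22.0 and 26.1 CPM against 0, 0.0564 and 0 CPM. With 1487 counts against 1, its ratio was 1306 with a 95% exact counting interval of 234 to 51618, and its adjusted p was 7.30e-16. The interval covers counting error only.

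Some reads can fit both Tuba3a and Tuba3b, so the split between them is partly uncertain. Their transcripts of 1509 and 1775 bases were 96.2% identical over 1493 aligned bases. Of the 50-base windows of Tuba3a 32.4% occurred in Tuba3b, and of the 75-base windows 19.9%. The reads the study describes are longer than these windows. Of the 264 values of the 8 genes in the 33 libraries, 16 were not whole numbers, and all 16 belonged to these 2 genes. None of the 16 was in a wild-type or Setdb1 F/F library. In Setdb1 Δ/Δ, Tuba3b was at 5.42% to 6.25% of the CPM of Tuba3a. The opposite-strand gene 4930417O13Rik was at 0.237 to 0.755 CPM there, far under Tuba3a.

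**Figure D3:**
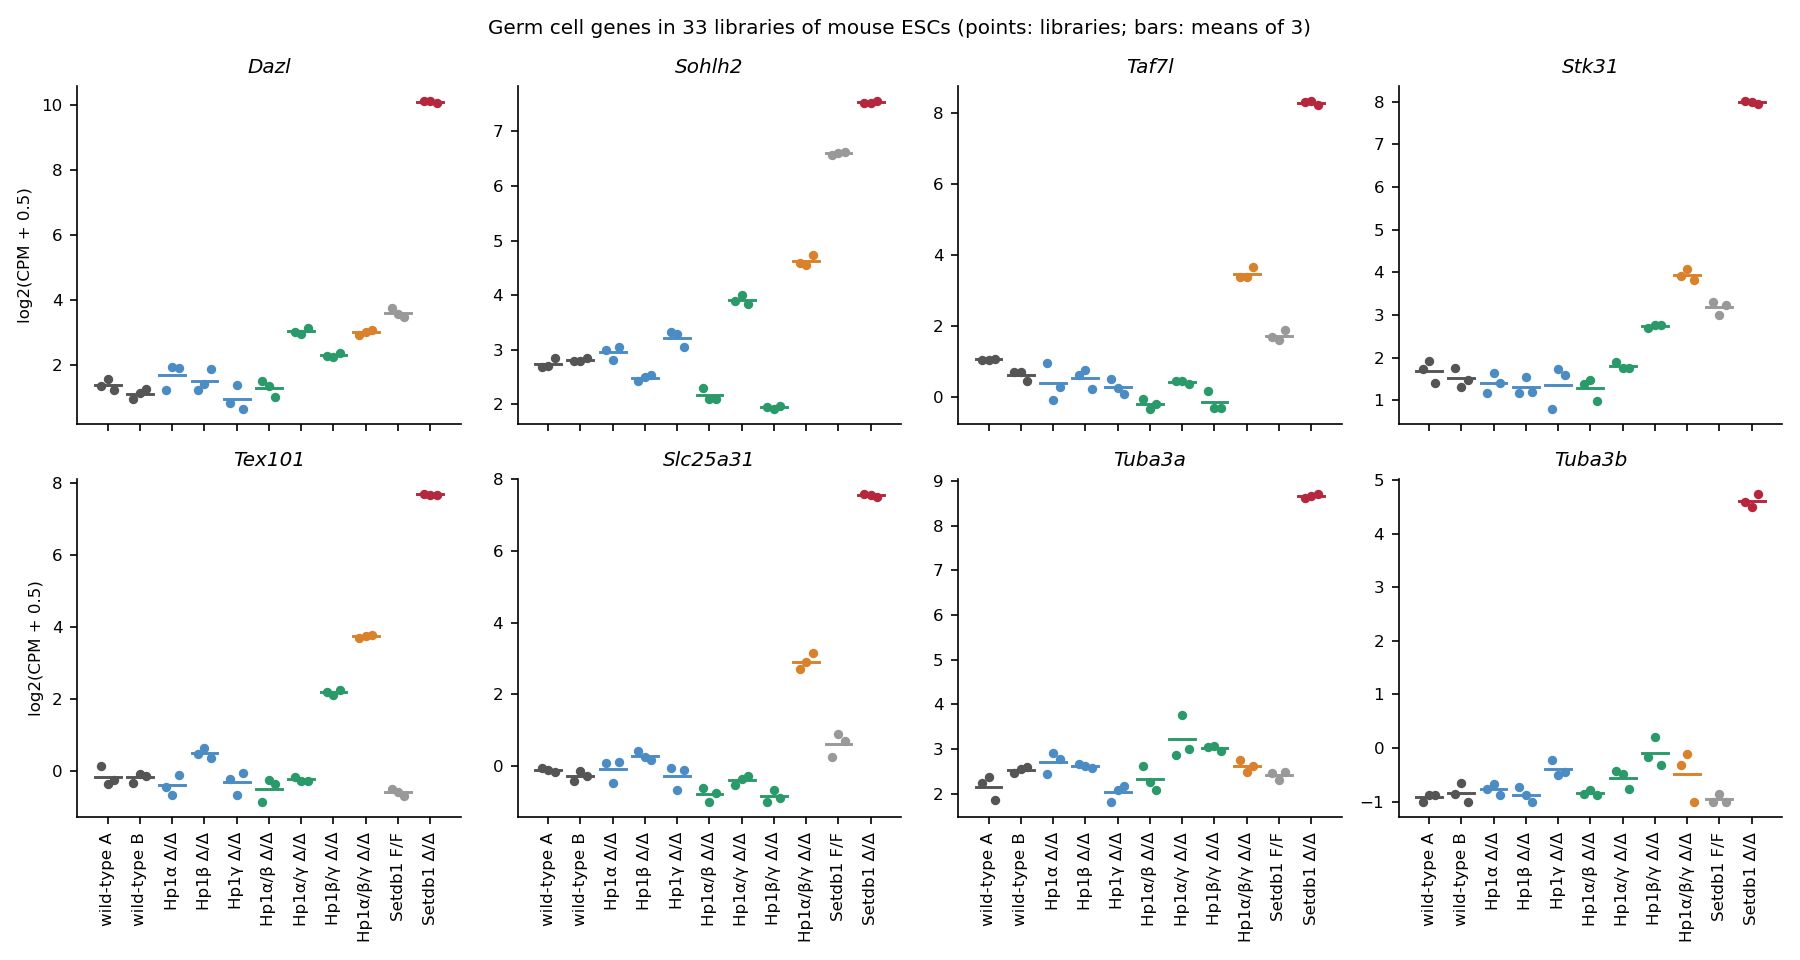
Level of each of the 8 genes (panels; y axis, log2(CPM + 0.5)) in the 33 libraries of the 11 conditions (x axis). Points are libraries and bars are the means of 3 libraries. Setdb1 Δ/Δ is highest in every panel, Hp1α/β/γ Δ/Δ stands apart from the wild-type libraries for Stk31, Taf7l, Tex101, Slc25a31, Dazl and Sohlh2, and Sohlh2 is already at 94.7 to 97.6 CPM in Setdb1 F/F.

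Loss of all 3 Hp1 genes was followed by higher levels of 6 of the 8 genes, at lower levels than in Setdb1 Δ/Δ. Against wild-type set A, 7 genes were tested, 6 of these rose and none fell, with a median log2 fold change of 2.46, against 0.04 over all 17501 genes tested. In this comparison 25.1% of all genes rose and 17.1% fell. Stk31, Taf7l and Tex101 are among the germline genes that the study itself named from these samples, so their direction is not independent evidence. The 6 genes had a higher CPM in each Hp1α/β/γ Δ/Δ library than in any wild-type library.

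Tex101 showed the highest fold change of the 8 in the triple mutant, at 12.4, 12.9 and 13.2 CPM against 0.601, 0.278 and 0.339 CPM in set A. The log2 fold change was 5.0 ± 0.29, with an adjusted p of 4.50e-14. Slc25a31 was at 5.96, 6.94 and 8.39 CPM against 0.463, 0.417 and 0.388 CPM, a log2 fold change of 4.09 ± 0.31 (adjusted p 1.96e-11). On average both genes were under 1 TPM in wild-type cells and reached 28.3 and 7.11 TPM.

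Taf7l was at 9.95, 9.98 and 12.2 CPM in the triple mutant against 1.57, 1.57 and 1.6 CPM, with a log2 fold change of 2.79 ± 0.18 (adjusted p 9.83e-12). Stk31 was at 14.5, 16.5 and 13.5 CPM against 2.82, 3.29 and 2.13 CPM, with a log2 fold change of 2.46 ± 0.16 (adjusted p 1.50e-11). Sohlh2 was at 23.7, 23.0 and 26.3 CPM against 5.92, 5.98 and 6.74 CPM, a log2 fold change of 2.01 ± 0.10 (adjusted p 4.40e-13). These 3 genes started from readable wild-type levels and differed by 2 to 3 on the log2 scale.

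Dazl, the highest of the 8 after loss of Setdb1, was at 7.16, 7.56 and 7.93 CPM in the triple mutant against 2.08, 2.50 and 1.84 CPM, a log2 fold change of 1.85 ± 0.18 (adjusted p 1.06e-08). Tuba3a did not pass the fold threshold, at 6.26, 5.09 and 5.69 CPM against 4.26, 4.68 and 3.10 CPM and a log2 fold change of 0.54 ± 0.18 (adjusted p 0.0106). Tuba3b was too low to be tested, with 7, 9 and 0 counts in the triple mutant libraries, 16 in all, against 2. The pooled ratio was 7.27 with a 95% exact counting interval of 1.71 to 65.2. That interval leaves out the spread between libraries, and the libraries of the 2 groups overlapped. In the triple mutant 7 of the 8 genes reached 1 TPM, Tuba3b being the exception.

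**Figure D4:**
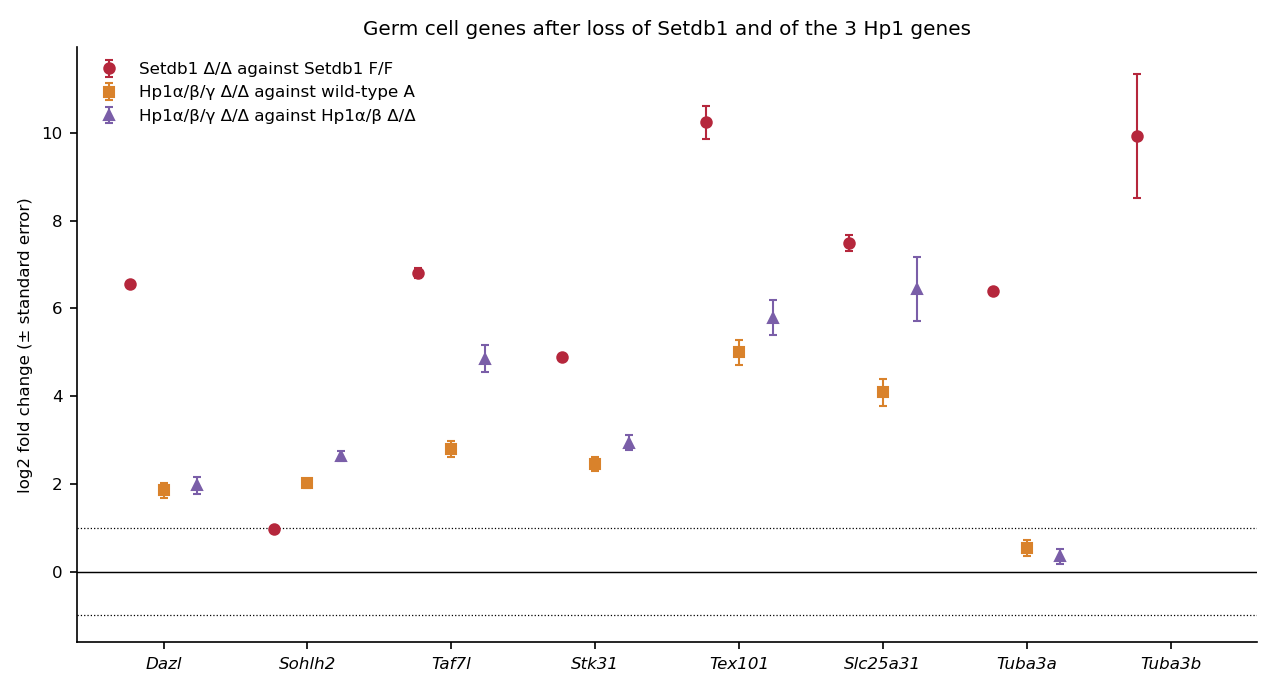
Log2 fold change (y axis) with its standard error for each gene (x axis) in Setdb1 Δ/Δ against Setdb1 F/F, in Hp1α/β/γ Δ/Δ against wild-type set A and in Hp1α/β/γ Δ/Δ against Hp1α/β Δ/Δ; dotted lines mark the fold threshold, and genes not tested have no point. Dazl at 6.56 against 1.85 and Tuba3a at 6.39 against 0.54 differ widely between the mutants, and Sohlh2 at 0.96 against 2.01 goes the other way.

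Whether the responses themselves differed was tested as an interaction over the 12 libraries of Setdb1 Δ/Δ, Setdb1 F/F, Hp1α/β/γ Δ/Δ and wild-type set A, which share no control. The response to loss of Setdb1 was larger for 7 of the 8 genes and smaller for 1, and among all 18569 genes tested 16.5% were larger and 15.4% smaller by the same thresholds. The difference of the log2 fold changes was 5.88 ± 0.16 for Tuba3a (adjusted p 1.75e-18) and 4.74 ± 0.13 for Dazl (adjusted p 9.74e-17). It was 5.28 ± 0.47 for Tex101, 4.03 ± 0.19 for Taf7l, 3.42 ± 0.38 for Slc25a31 and 2.47 ± 0.16 for Stk31. Tuba3b, with few counts in 3 of the 4 groups, gave 7.29 ± 2.24 (adjusted p 0.0111), which was lost when 1 library of set A was left out (adjusted p 0.077 without replicate 2 and 0.0767 without replicate 3). Sohlh2 gave -1.03 ± 0.08 (adjusted p 1.65e-10), the only negative difference, with controls that were not alike: 94.7 to 97.6 CPM in Setdb1 F/F and 5.92 to 6.74 CPM in set A. With Hp1α/β Δ/Δ as the control of the triple mutant, the difference of Slc25a31 was 1.07 (adjusted p 0.347).

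The step from Hp1α/β Δ/Δ to Hp1α/β/γ Δ/Δ, which adds loss of Hp1γ, gave the same 6 calls. Of the 7 genes tested 6 rose and none fell, with a median log2 fold change of 2.94, against 0.03 over all genes tested, and 25.4% of all 17425 genes rose and 16.0% fell. The triple mutant libraries are the same in both comparisons, so they are no repeat of each other. In Hp1α/β Δ/Δ, Slc25a31 was at 0.155, 0 and 0.0940 CPM, 5 counts in all, and Tex101 at 0.0515, 0.332 and 0.282 CPM, 15 counts in all. The log2 fold changes were 6.45 ± 0.72 for Slc25a31 and 5.79 ± 0.40 for Tex101. Taf7l, at 0.464, 0.290 and 0.376 CPM in Hp1α/β Δ/Δ, rose by 4.86 ± 0.30 on the log2 scale. In this comparison Taf7l passed the filter on low counts through the triple mutant libraries. Stk31, Sohlh2 and Dazl rose by 2.94 ± 0.17, 2.63 ± 0.12 and 1.96 ± 0.19, and Tuba3a gave 0.35 (adjusted p 0.0857).

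Among the double mutants, the 8 genes were not alike. In Hp1β/γ Δ/Δ against wild-type set B, 6 genes were tested, 3 rose and 1 fell, with a median log2 fold change of 0.95, against 0.005 over all 16263 genes tested, of which 7.32% rose and 4.54% fell. Tex101 was at 4.10, 3.84 and 4.21 CPM against 0.296, 0.448 and 0.412 CPM, a log2 fold change of 3.37 ± 0.29 (adjusted p 2.05e-08). Stk31 was at 5.95, 6.24 and 6.26 CPM against 2.86, 1.97 and 2.29 CPM (log2 fold change 1.38 ± 0.17, adjusted p 4.44e-06), and Dazl at 4.36, 4.28 and 4.71 CPM against 1.43, 1.70 and 1.92 CPM (1.4 ± 0.18, adjusted p 1.10e-05). No library of the mutant overlapped the wild type for these 3 genes.

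Taf7l fell in Hp1β/γ Δ/Δ, at 0.617, 0.305 and 0.309 CPM against 1.14, 1.12 and 0.869 CPM, a log2 fold change of -1.34 ± 0.37 (adjusted p 0.00609). DESeq2 gave an adjusted p of 0.0458. With 14, 7 and 8 counts in the mutant libraries, Taf7l passed the filter on low counts through set B, so its fall is a description. Sohlh2 was also lower, at 3.39, 3.27 and 3.40 CPM against 6.46, 6.41 and 6.68 CPM, and just missed the fold threshold with a log2 fold change of -0.95 ± 0.14 (adjusted p 2.76e-05). Slc25a31, with 4 counts against 21, and Tuba3b, with 32 counts against 4, were too low for the test. The ratio of Tuba3b was 7.21, with a 95% exact counting interval of 2.56 to 28.1. Tuba3b was called higher by DESeq2 (2.88, adjusted p 0.0294) and by edgeR without the low-count filter (2.76, adjusted p 0.0021). Tuba3a gave 0.52 (adjusted p 0.00167).

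In Hp1α/γ Δ/Δ against set B, Dazl and Sohlh2 rose, 2 of the 5 genes tested, and none fell. Over all 15841 genes tested 6.75% rose and 16.3% fell, and the median log2 fold change was 0.73 over the genes described here against -0.02 over all. Dazl was at 7.58, 7.31 and 8.26 CPM, with a log2 fold change of 2.15 ± 0.18 (adjusted p 0.000179). Sohlh2 was at 14.4, 15.5 and 13.8 CPM, with a log2 fold change of 1.12 ± 0.11 (adjusted p 0.000353). Both steps were smaller on the deposited TPM, which was not tested. There Dazl averaged 3.42 against 1.15 in set B, and Sohlh2 6.97 against 4.13, a step under the fold threshold. The call of Sohlh2 therefore depends on the scale. Without replicate 2, the library that stands apart, Dazl was at 2.22 (adjusted p 1.36e-07) and Sohlh2 at 1.11 (adjusted p 1.44e-06). Tuba3a was at 6.80, 13.1 and 7.51 CPM, the highest in replicate 2, with a log2 fold change of 0.73 (adjusted p 0.0419). That of Tuba3a was 0.42 (adjusted p 0.0171) without replicate 2, and with all 3 libraries it passed the fold threshold with set A as the control (1.14, adjusted p 0.0137). Stk31 gave 0.30 (adjusted p 0.284) and Taf7l -0.33 (adjusted p 0.330), while Tex101 and Slc25a31 stayed under 0.4 CPM in each library.

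In Hp1α/β Δ/Δ against set A, 5 genes were tested, Taf7l fell and none rose, with a median log2 fold change of -0.49, against a background of 2.96% rising and 5.19% falling among 15854 genes. The median over all genes was -0.0009. Taf7l had a log2 fold change of -2.07 ± 0.40 (adjusted p 0.000315) and its libraries did not overlap those of set A. With 9, 7 and 8 counts in the mutant libraries, Taf7l passed the filter on low counts through set A, so its fall is a description. Sohlh2, at 4.43, 3.78 and 3.81 CPM, gave -0.64 (adjusted p 0.00398), Stk31 -0.49, Dazl -0.13 and Tuba3a 0.18. By an unadjusted p under 0.05 no gene was higher and 2, Taf7l and Sohlh2, were lower, and DESeq2 likewise called none higher. Taf7l and Sohlh2 thus lay below wild type in Hp1α/β Δ/Δ and above it in Hp1α/β/γ Δ/Δ.

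**Figure D5:**
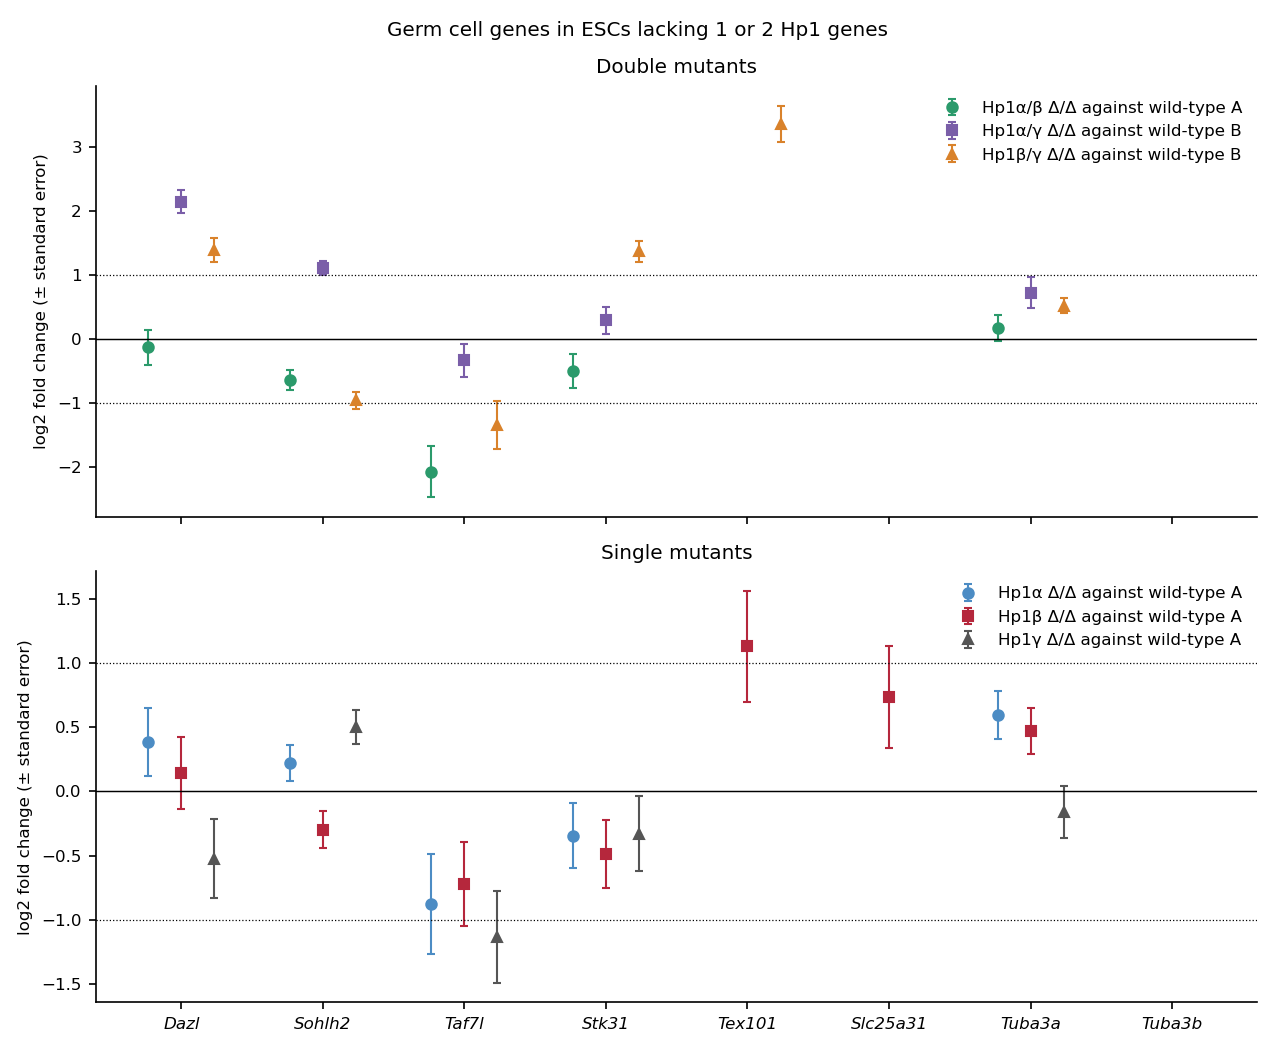
Log2 fold change (y axis) with its standard error for each gene (x axis) in the double mutants (upper panel) and single mutants (lower panel), each against its own wild-type set; dotted lines mark the fold threshold, and genes not tested have no point. In the double mutants Tex101 in Hp1β/γ Δ/Δ (3.37), Dazl in Hp1α/γ Δ/Δ (2.15) and Taf7l in Hp1α/β Δ/Δ (-2.07) stand out, and most points of the single mutants lie between the dotted lines.

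The single mutants showed few changes in these genes. In Hp1α Δ/Δ none of the 5 genes tested rose or fell, with a median log2 fold change of 0.22, and the background was 1.56% rising and 3.31% falling among 15841 genes (median -0.007). By an unadjusted p under 0.05, 1 gene (Tuba3a, 0.59, adjusted p 0.0135) was higher and 1 (Taf7l, -0.88, adjusted p 0.0723) lower, and DESeq2 called none. In Hp1β Δ/Δ, 1 of 7 genes tested rose and none fell, with 2.75% rising and 6.36% falling among 15845 genes, and medians of 0.15 over the genes tested and -0.03 over all. That gene was Tex101, at 0.892, 1.05 and 0.777 CPM, with a log2 fold change of 1.13 ± 0.43 (adjusted p 0.0438). This call was lost by DESeq2 (adjusted p 0.138), without any 1 of the 3 mutant libraries (adjusted p 0.0664 to 0.137) and without replicate 2 or 3 of set A (0.150 and 0.134). By an unadjusted p under 0.05, 2 genes were higher in Hp1β Δ/Δ, Tex101 and Tuba3a (0.47, adjusted p 0.0477). Taf7l was the 1 gene lower (-0.72, adjusted p 0.0859). Slc25a31 gave 0.73, Dazl 0.15, Sohlh2 -0.30 and Stk31 -0.48, none of them called.

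In Hp1γ Δ/Δ, 1 of 5 genes tested fell and none rose, with 2.04% rising and 3.55% falling among 15823 genes, and medians of -0.33 over the genes tested and -0.01 over all. That gene was Taf7l, at 0.923, 0.701 and 0.556 CPM against 1.57, 1.57 and 1.6 CPM, a log2 fold change of -1.13 ± 0.36 (adjusted p 0.0134). It was not called with set B as the control (-0.51, adjusted p 0.219) or without replicate 3 of the mutant (-0.97, adjusted p 0.0584). Sohlh2, at 9.49, 9.24 and 7.78 CPM, gave 0.50 (adjusted p 0.00428). Tuba3b was too low for the test, with 17 counts against 2, a ratio of 8.30 with a 95% exact counting interval of 1.97 to 74.1. By an unadjusted p under 0.05 Sohlh2 was the 1 gene that was higher, and DESeq2 called none higher.

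Between the 2 wild-type sets none of the 5 genes tested was called, with a median log2 fold change of -0.21 against 0.003 over all 16008 genes, of which 2.55% were higher in set B and 3.12% lower. At such shares the lack of a call among 5 genes says little about them. Taf7l had the largest difference in size, -0.60 (adjusted p 0.143), and Tuba3a was at 0.41 (adjusted p 0.103). For both genes the libraries of the 2 sets did not overlap. Taf7l averaged 1.58 CPM in set A and 1.04 in set B, and Tuba3a 4.01 and 5.32. By an unadjusted p under 0.05, 1 gene, Tuba3a, was higher in set B and none lower, and DESeq2 called none. Setdb1 F/F cells stood further from wild type, although no test was made between those groups. The targeted genes differed too. Cbx1 was at 169 to 176 CPM in Setdb1 F/F against 430 to 448 in set A. Cbx3 was at 124 to 130 CPM against 173 to 186, and Setdb1 at 131 to 136 against 197 to 209. Cbx5 was higher, at 531 to 559 CPM against 479 to 490. In Setdb1 Δ/Δ, Cbx3 was at 71.8 to 75.2 CPM, beside 74.8 to 76.7 in Hp1γ Δ/Δ. The part of these levels in the responses compared was not tested. Mean CPM in Setdb1 F/F was 15.5 times that of set A for Sohlh2, 5.43 for Dazl, 3.12 for Stk31, 2.51 for Slc25a31, 1.79 for Taf7l and 1.21 for Tuba3a, and 0.400 for Tex101. Of 15254 genes at 1 CPM or more, 1.76% were at least 10 times higher in Setdb1 F/F than in both wild-type sets, as Sohlh2 was, and 2.18% at least 10 times lower.

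Across the 11 conditions every one of the 8 genes was highest in Setdb1 Δ/Δ. The order below it differed by gene: on CPM, Hp1α/β/γ Δ/Δ was second for Stk31, Taf7l, Tex101 and Slc25a31, and Setdb1 F/F for Dazl and Sohlh2. For Dazl the next in order on CPM, Hp1α/γ Δ/Δ and the triple mutant, overlapped, at 7.31 to 8.26 and 7.16 to 7.93. The order of Dazl depended on the scale. On the deposited TPM the triple mutant was second at 7.29 to 8.66, then Setdb1 F/F at 5.12 to 7.04 and Hp1α/γ Δ/Δ at 2.14 to 4.38, with no overlap. For Tex101, Hp1β/γ Δ/Δ was the next condition, at 3.84 to 4.21 CPM, clear of Hp1β Δ/Δ at 0.777 to 1.05 CPM, and the 7 remaining conditions overlapped their neighbours. For Tuba3b, all conditions other than Setdb1 Δ/Δ overlapped the next in order.

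The 8 genes followed each other to different degrees. Over the means of the 11 conditions on the log2(CPM + 0.5) scale, Pearson's r was highest for Taf7l with Slc25a31 (0.994) and for Tuba3a with Tuba3b (0.982), and lowest for Tex101 with Sohlh2 (0.593). These values rest largely on Setdb1 Δ/Δ, and over the 9 wild-type and Hp1 conditions r ran from -0.05 (Taf7l with Tuba3a) to 0.972 (Taf7l with Slc25a31), with 0.957 for Stk31 with Tex101. The conditions share control libraries, and the values are descriptions. Among 14430 genes compared, those most like each of the 8 were Tex13b (0.989) and Tle7 (0.987) for Dazl, Gm6639 (0.997) and Gm30735 (0.987) for Stk31, and Gm37608 (0.994) and Slc25a31 (0.994) for Taf7l. For Tex101 they were Gm17184 (0.994) and Gm10378 (0.993), for Slc25a31 Gm37608 (0.994) and Taf7l (0.994), and for Sohlh2 Cul3 (0.984) and Vsig2 (0.975). For Tuba3a they were 1700030N03Rik (0.996) and Xlr (0.992), and for Tuba3b Gm8126 (0.995) and Gm2791 (0.994).

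The 25 other germ cell genes of a fixed list moved in the same direction in the strongest mutants. In Setdb1 Δ/Δ, 22 of the 24 tested rose and none fell, with a median log2 fold change of 4.52, and the helicase gene Tdrd9 led with 8.37 ± 0.23. In Hp1α/β/γ Δ/Δ, 18 of 24 rose and 1 fell, with a median of 1.55, led by the chaperone gene Fkbp6 at 5.88 ± 0.51. Mael and Syce1, which the study named from these samples, are on this list. From Hp1α/β Δ/Δ to the triple mutant 22 of 24 rose and none fell (median 2.22). In Hp1α/γ Δ/Δ 10 of 21 rose and 4 fell (median 0.99), in Hp1β/γ Δ/Δ 6 of 22 rose and 2 fell (0.23), and in Hp1α/β Δ/Δ 2 of 22 rose and 4 fell (-0.65). In the single mutants 0 of 20, 2 of 21 and 0 of 19 rose and 1, 3 and 0 fell for Hp1α, Hp1β and Hp1γ. Among all genes tested, 18.5% rose and 11.4% fell in Setdb1 Δ/Δ, and 25.1% and 17.1% in the triple mutant. From Hp1α/β Δ/Δ to the triple mutant these shares were 25.4% and 16.0%. They were 6.75% and 16.3% in Hp1α/γ Δ/Δ, 7.32% and 4.54% in Hp1β/γ Δ/Δ, and 2.96% and 5.19% in Hp1α/β Δ/Δ. In the single mutants 1.56% to 2.75% rose and 3.31% to 6.36% fell, so the few calls there say little about the list. The summed level of the list was 4389 to 4530 CPM in Setdb1 Δ/Δ against 362 to 380 in Setdb1 F/F, and 651 to 670 CPM in the triple mutant against 303 to 314 in set A.

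Markers of germ cell types did not follow the 8 genes as lists. The counts below stand beside 18.5% of all genes tested rising and 11.4% falling in Setdb1 Δ/Δ. In the triple mutant these shares were 25.1% and 17.1%. With so few markers tested, counts near these shares say little about the lists. Of the primordial germ cell markers, 1 rose and 1 fell among 8 tested in Setdb1 Δ/Δ (median log2 fold change -0.16), and 1 rose and 3 fell among 7 in the triple mutant (median -0.27). Their summed level was 217 to 234 CPM in Setdb1 Δ/Δ against 303 to 319 in Setdb1 F/F, and 187 to 196 CPM in the triple mutant against 216 to 221. Prdm1, the called marker of largest fold change in both mutants, fell by 3.22 ± 0.16 and by 2.41 ± 0.16 on the log2 scale, while 1 other marker rose in each. Of the spermatogonia markers, 1 rose and 2 fell among 6 tested in Setdb1 Δ/Δ, and 1 rose and 3 fell in the triple mutant. The one that rose in Setdb1 Δ/Δ was Stra8, the retinoic acid target of germ cells entering meiosis, at 508 CPM on average against 7.37. The list summed to 560 to 578 CPM there against 134 to 139, and Nanos2 was at 0 in both groups. Gfra1, a stem cell receptor of spermatogonia, was at 0.368 CPM against 6.88.

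The regulators of DNA methylation and of chromatin were called at shares set here beside those of all genes, 25.1% rising and 17.1% falling in the triple mutant and 18.5% and 11.4% in Setdb1 Δ/Δ. In Hp1α/β/γ Δ/Δ 1 of 8 rose and 3 fell (median log2 fold change -0.79), with Tet1, which oxidises methylated cytosine, at -2.05 ± 0.02, and the list summed to 1266 to 1273 CPM against 2814 to 2830 in set A. In Setdb1 Δ/Δ 1 of 8 rose and none fell (median -0.39), with Dnmt3l, a cofactor of the de novo methyltransferases, at 2.13 ± 0.04, and the list summed to 1814 to 1845 CPM against 2439 to 2455. In Hp1α/γ Δ/Δ 2 rose and 3 fell, beside 6.75% and 16.3% of all genes tested. In Hp1β/γ Δ/Δ 1 fell (Tet1, -1.13 ± 0.04), beside 4.54% of all genes tested. None of the 8 passed the thresholds in Hp1α/β Δ/Δ or in a single mutant. In those mutants only 1.56% to 2.96% of all genes tested rose and 3.31% to 6.36% fell. Of the 14 subunits of PRC1.6, 1 rose and 1 fell in Setdb1 Δ/Δ (E2f6 at 1.07 ± 0.04, median of the list -0.42), and 1 rose and 3 fell in the triple mutant (median -0.28), where the targeted Cbx3 was among those that fell. From Hp1α/β Δ/Δ to the triple mutant 2 rose and 4 fell, beside 25.4% and 16.0% of all genes tested. Mga led there, at 1041 CPM on average against 299 (1.82 ± 0.04). It averaged 242 CPM in Setdb1 Δ/Δ against 404 in Setdb1 F/F. Of the 9 regulators of H3 lysine 9 methylation, 1 rose and 2 fell in Setdb1 Δ/Δ (median -0.41) and 1 rose and 2 fell in the triple mutant (median -0.77), with the targeted Cbx1 at -3.27 ± 0.04 there. The part of these lists in the levels of the 8 genes was not tested.

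Markers of other cell states moved together with the 8 genes in some mutants, and in bulk RNA a change in the share of cells of a type cannot be told apart from a change in RNA per cell. Among all genes tested, 18.5% rose and 11.4% fell in Setdb1 Δ/Δ, and 25.1% and 17.1% in the triple mutant. These shares were 7.32% and 4.54% in Hp1β/γ Δ/Δ, and 6.75% and 16.3% in Hp1α/γ Δ/Δ. The 2-cell-like markers summed to 52.1 to 57.2 CPM in Setdb1 Δ/Δ against 0.0564 to 0.250 in Setdb1 F/F, with 6 of 6 tested higher. They summed to 13.7 to 15.7 CPM in the triple mutant against 0 in set A, where all 8 were at 0, and 5 of 5 tested rose. In Hp1β/γ Δ/Δ they summed to 47.9 to 52.4 CPM against 0.0448 to 0.0915 with 8 of 8 higher. Of the 8 germ cell genes, Tex101, Stk31 and Dazl rose in that mutant and Taf7l fell. The endoderm markers summed to 22.9 to 23.6 CPM in the triple mutant against 1.89 to 2.31 in set A, with 4 of 4 tested higher, and to 7.17 to 8.20 CPM in Setdb1 Δ/Δ against 14.8 to 14.9 in Setdb1 F/F, with 1 higher and 3 lower of 6. The ESC markers were lower in the triple mutant (1 of 9 rose and 5 fell, against 3423 to 3445 CPM in set A) and 1 of 9 fell in Setdb1 Δ/Δ. The feeder fibroblast markers summed to 3.69 to 4.77 CPM in Setdb1 Δ/Δ against 8.15 to 8.80, to 14.4 to 17.2 CPM in the triple mutant against 35.7 to 38.0, and to 14.1 to 16.2 CPM in Hp1α/γ Δ/Δ against 53.7 to 62.1, lower in each of these 3 mutants. Of those tested, 2 of 3, 4 of 8 and 7 of 8 fell, and 1 rose in the triple mutant. The part of these markers in the levels of the 8 genes was not tested.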

How the data were processed

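RNA-seq was done on 33 ESC libraries. The labels and the study's methods name different Illumina TruSeq kits, so strand use in counting is not settled. The authors deposited, per gene and library, expected counts estimated with RSEM and TPM (transcript levels scaled for length) computed by the authors from them; the submitters' processing notes also name TopHat2 2.1.1, edgeR and GRCm38.p5. The authors' own fold changes and p-values, and 16 columns of group means, were not used. Groups followed the genotype and title labels, 3 libraries each. The study describes 3 biological replicates, but nothing ties them to separate clones, so p-values measure the spread between these libraries.

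Expected counts were rounded to whole numbers. Each comparison was fitted on its own 6 libraries (12 for the interaction) with edgeR 4.0.16 in R 4.3.3: genes were filtered with filterByExpr (minimum count 10), scaled by TMM and tested by the quasi-likelihood test, with Benjamini-Hochberg adjustment over all genes tested, and called at an adjusted p under 0.05 and a log2 fold change over 1 in size. Standard errors are Wald errors of the fitted log2 fold change. CPM were scaled by TMM over all 33 libraries, with a pseudocount of 0.5 where logged. An exact permutation test of 3 against 3 libraries cannot give a two-sided p under 0.1 and was not used. No 2 replicates agreed within sampling noise (lowest chi-square per gene 1.89). The scripts were tested on simulated data. Alternatives were DESeq2 1.42.0, RLE size factors, no low-count filter, no fold threshold, the other wild-type set in place of the control, a replicate block, and leaving out each library. Same-numbered libraries did not deviate together (correlations -0.06 to 0.07), so the numbers were not treated as pairs.

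The genes, gene lists, markers and tests were chosen with earlier results of these data known. All 8 genes were read in every comparison, though not all of them are named in each. From other lists the gene named is the called one of largest fold change with at least 1 CPM, and further list genes were named after their values were seen. Positions came from GENCODE M21 and promoters from RefSeq.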

Additional observations from a re-analysis of the deposited data

Results flagged for a closer look

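The response to loss of Setdb1 and the response to loss of all 3 Hp1 genes differed, by the interaction test of edgeR over 12 libraries, for all 8 genes, which is what drew attention to them. The difference of the log2 fold changes (Setdb1 minus Hp1) was 4.735 for Dazl, 2.467 for Stk31, 4.035 for Taf7l, 5.276 for Tex101, 3.423 for Slc25a31, 5.884 for Tuba3a, 7.295 for Tuba3b and -1.027 for Sohlh2. In 7 of the 8 genes it was positive. Sohlh2 was the exception, and its controls differed, with 94.7 to 97.6 CPM in Setdb1 F/F and 5.92 to 6.74 CPM in wild-type set A. The Tuba3b value rests on 1 count in Setdb1 F/F and 2 in set A. The mutants come from different floxed parental cells, whose part cannot be told apart from that of the mutations. No group had 4 or more libraries, so no library was tested for standing apart from its group.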

How the results depend on the processing

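Of the counts of genes called in each comparison, 111 of those recomputed under an alternative other than leaving out a library stayed within 1.5 times the reported count and 11 did not. Leaving out 1 library moved 7 more past that bound and 125 not. Without the fold threshold, 1 gene was higher in Hp1α Δ/Δ, 2 in Hp1β Δ/Δ and 1 in Hp1γ Δ/Δ, and 2 were lower in Hp1α/β Δ/Δ and in Hp1β/γ Δ/Δ. Without the low-count filter 2 were lower in Hp1β/γ Δ/Δ (Slc25a31 was added) and Tuba3b was added as higher. In Hp1β Δ/Δ the number higher was 0 by DESeq2, without the low-count filter and with the replicate block, and 2 when set B of the wild type was the control (Slc25a31 was added at 1.11). The number lower in Hp1γ Δ/Δ was 0 with set B. Leaving out 1 library gave 0 to 1 lower in Hp1α Δ/Δ (1 without its replicate 1, where Taf7l was at -1.45), 0 to 1 higher in Hp1β Δ/Δ and 0 to 1 lower in Hp1γ Δ/Δ, and 6 to 8 genes in the interaction. The sign turned in 4 cases, none of them called: leaving out 1 library gave -0.12 (without replicate 3) to 0.31 for Dazl in Hp1β Δ/Δ and -0.25 to 0.033 (without replicate 3) for Dazl in Hp1α/β Δ/Δ, which was at 0.22 with set B, and Tuba3a in Hp1α/β Δ/Δ at -0.23 with set B. The causes were not tested. Sohlh2 lost the fold threshold of the interaction with set B (-0.96) and without replicate 3 of the triple mutant or replicate 1 or 2 of set A (-0.98 to -0.99). With set A in place of Setdb1 F/F, an alternative chosen after seeing the data, the log2 fold change of Sohlh2 in Setdb1 Δ/Δ was 4.91.

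The libraries share replicate numbers that the labels do not tie to a batch. Under a replicate block, 20 of the 21 counts stayed within 1.5 times, and Tex101 in Hp1β Δ/Δ was at 1.16 (adjusted p 0.0663). The block therefore changed no call other than that one. Few counts limit Tuba3b in every condition but Setdb1 Δ/Δ, and Slc25a31 and Tex101 in wild-type cells.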

Other observations

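Genes next to the 8 germ cell genes were read as well, and the examples were chosen after their values were seen. Within 50 kb, 10 neighbours were tested in Setdb1 Δ/Δ against Setdb1 F/F, of which 6 rose and none fell, beside 18.5% rising and 11.4% falling among all genes tested. Within 200 kb, 14 of 47 rose and 6 fell, with a median log2 fold change of -0.16. Fam221a, 5.1 kb from Stk31, had a log2 fold change of 2.56 ± 0.12. Intu and Hspa4l, 4.1 and 18.4 kb from Slc25a31, were at 1.04 ± 0.07 and 1.11 ± 0.07. Vamp1, 32.3 kb from Tuba3a, was at 1.26 ± 0.08, Phldb3, 38.7 kb from Tex101, at 1.26 ± 0.32 and Spg20, 44.7 kb from Sohlh2, at 1.23 ± 0.06. Drp2, 3.5 kb from Taf7l, was at -0.90 ± 0.23 in Setdb1 Δ/Δ and at 1.55 ± 0.30 in Hp1α/β/γ Δ/Δ.

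In the triple mutant 2 of the 12 neighbours tested within 50 kb rose and 2 fell, beside 25.1% and 17.1% among all genes tested. Around Sohlh2, the high level in Setdb1 F/F was not shared by its neighbours: Spg20 averaged 20.3 CPM in Setdb1 F/F and 38.3 in wild-type set A, and Dclk1 0.435 against 1.59, while Sohlh2 was at 96.3 against 6.21.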
